A study of Mus musculus with 24 samples.

Results

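Callosal projection neurons of the mouse cortex were compared between postnatal day (P) 7 and P21, using the RNA-seq values of neurons sorted from Cux2-CreERT2 reporter mice (Cux2 CPN). Of the 9767 gene entries in the expression table, 144 were dropped. Of these, 118 had symbols of microRNA, small nucleolar RNA or clone-named genes, and 26 were Gm-number genes listed at 0 in all 6 groups of 1 neuron class. A further 1446 entries stayed under 10 FPKM (sequenced fragments scaled by transcript length and library size) at both ages, which left 8177 genes. The P7 and P21 groups held 2 libraries each, 4 of the 24 libraries of the series. The whole series has 12 groups, which are Cux2 CPN and Tle4 CThPN (corticothalamic projection neurons) before birth (E18.5) and at 5 postnatal ages up to P48, and was made to follow these neuron classes through their development after the last division.

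The mice carried CreERT2 knocked into the Cux2 locus together with Ai14, a reporter that switches on tdTomato after recombination. The labels give the strain as C57BL/6, and the study describes the background as mixed C57BL/6J. Pregnant mice received 4-hydroxytamoxifen at 1 mg per 10 g of body weight. Somatosensory and motor cortex was dissected, dissociated with papain, and sorted for tdTomato, and each library pooled animals of both sexes. The Tle4 CThPN groups differed in the Cre line, which was driven by Tle4. Cre at the Cux2 locus also marks some interneurons, so the sort is not purely of callosal neurons. In single cells of both sorted classes, labelled the same way, the study found few positive for Gad1 or Gad2. It judged the effect on its own analysis to be minimal. The labels give 12 U/ml of papain at every age, whereas the study's methods raise the concentration for P21 and P48. Age and enzyme concentration therefore cannot be told apart in this comparison. The deposited table holds 1 value per gene and group over both libraries. No value below has an error, a replicate check or a test, and all differences describe these libraries.

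Callosal neurons of the upper layers send axons across the midline to the other hemisphere. In the first postnatal week they are still extending and branching axons and dendrites, and most of their synapses form in the weeks that follow, when sensory experience shapes the circuit. Growing axons are rich in dynamic microtubules and guidance receptors, whereas mature neurons rely on stable cytoskeleton, fast transmitter release, scaffolded receptors and repetitive firing. Receptor and channel families commonly replace subunits over this period.

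The label of the sorted cells was checked against its defining genes. Cux2, the homeobox gene that marks upper layers, was at 36.4 FPKM at P7 and 56.8 FPKM at P21 in Cux2 CPN and at 1.03 and 1.34 FPKM in Tle4 CThPN. Tle4, a corepressor of deep-layer neurons, was at 2.02 and 6.18 FPKM in Cux2 CPN and at 97.2 and 90.6 FPKM in Tle4 CThPN. The 10 markers of glutamatergic neurons summed to 1191 FPKM at P7 and 2944 FPKM at P21 in Cux2 CPN. The study states a minimum depth for its libraries, but the depth of each is unknown, since FPKM keep no read numbers. The compared genes over 300 nt of annotated exon summed to 539678 FPKM at P7 and 590076 FPKM at P21, so the totals of ordinary genes were close. The 14 compared genes of up to 300 nt summed to 491637 and 1198840 FPKM, and their values are given with no weight.

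A gene is said here to have risen or fallen when its log2(FPKM + 1) differed by at least 1.5 between P7 and P21. By that limit 535 of the 8177 genes rose (6.54%), 345 fell (4.22%) and 7297 did neither. The median difference was 0.06 and the quartiles were -0.37 and 0.50, so most genes moved little. Differences of at least 3 were seen in 110 genes upward and in 67 downward, and differences of at least 4 in 33 and 21. Most genes past the limit were expressed weakly at the other age: 308 of the 535 were under 10 FPKM at P7, and 232 of the 345 were under 10 FPKM at P21. Just inside the limit were Zfp612, which went from 6.81 to 21.1 FPKM, and Ggh, which went from 19.9 to 6.37 FPKM. Just outside it were Dgkz, at 65.5 and 187 FPKM, and Gabra5, at 108 and 37.6 FPKM.

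**Figure D1:**
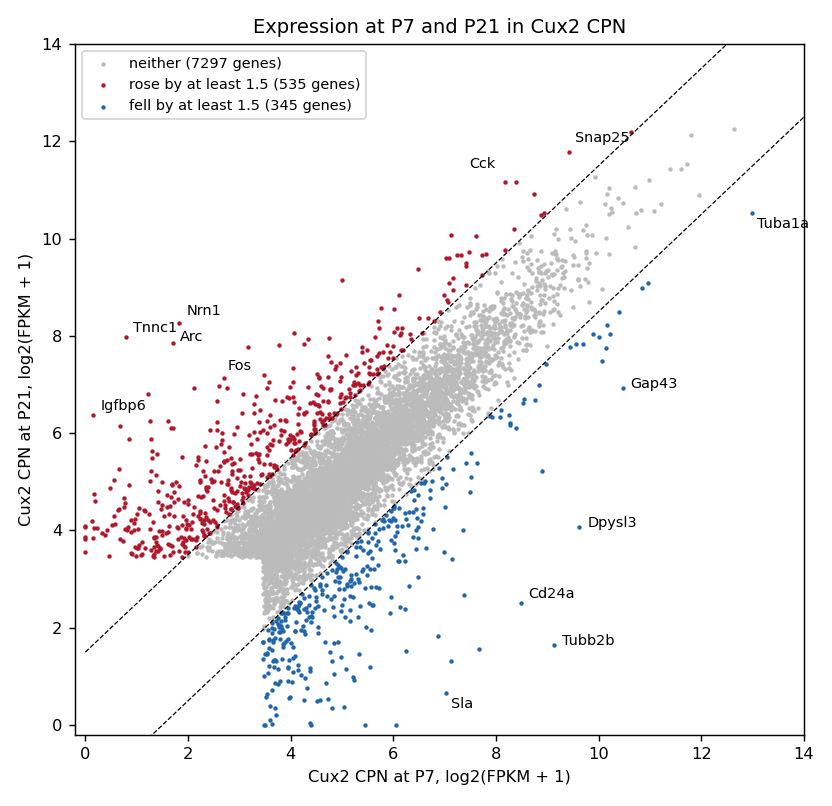
Level of each compared gene in Cux2 CPN at P7 (horizontal axis) and at P21 (vertical axis), both as log2(FPKM + 1), with 1 point per gene and dashed lines at a difference of 1.5. The 535 genes that rose lie above the upper line and the 345 that fell below the lower line, and 2 short genes of very high FPKM lie outside the axes.

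Among the 23 gene lists, not counting marker lists of other cells, the cytoskeleton of the growing neuron had the lowest median. The shares of all compared genes, 6.54% that rose and 4.22% that fell, are the background for every list described here. The single rises among cadherins, early transcription factors and DNA methylation genes were near it, as were the single falls among GABA-A receptor, sodium channel and neuropeptide genes and the 2 falls among 42 potassium channel genes, and these are given as values of single genes. Of the 29 compared members of the list for the cytoskeleton of the growing neuron, 16 fell, 0 rose and 27 were below 0. Their median difference was -1.85. Those 29 genes made up 6.34% of the summed FPKM of compared genes over 300 nt at P7 and 2.03% at P21. Tubb2b, a beta tubulin of migrating and growing neurons on chromosome 13 (NCBIM37, 34218877 to 34222223), showed the most negative difference of all compared genes. Its level was 822 FPKM before birth, 905 and 780 FPKM at the first postnatal ages and 563 FPKM at P7, against 2.11 FPKM at P21 and 2.45 FPKM at P48. All 4 early values were thus far above both later ones, and the difference from P7 to P21 was -7.50.

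Other microtubule partners of the growth cone fell with it. Dpysl5 and Dpysl3, collapsin response mediator proteins that relay guidance signals to microtubules, fell from 203 to 1.95 FPKM and from 788 to 15.8 FPKM. Dcx, which stabilises microtubules in migrating neurons, fell from 141 to 9.60 FPKM. Gap43, the membrane phosphoprotein of growth cones, was at 363 FPKM at E18.5 and climbed to 1416 FPKM at P7, then was at 120 FPKM at P21 and 107 FPKM at P48, 11.8-fold lower at P21 than at P7. Tuba1a, the main alpha tubulin of young neurons, lost the most FPKM of any compared gene and went from 8099 to 1464 FPKM. Mapt, which encodes tau, fell from 749 to 227 FPKM. The stathmins, which destabilise microtubules, differed among themselves: Stmn2 fell from 1836 to 508 FPKM, while Stmn1, Stmn3 and Stmn4 had differences between -1.06 and -0.51. Cfl1, Dclk1 and Cdk5r1 had differences of -0.15, 0.03 and 0.38.

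The list for the mature axon and dendrite held 14 compared genes, of which 2 rose and 0 fell, around a median of 0.17. Tuba4a, an alpha tubulin of mature neurons, rose from 222 to 817 FPKM. Nefl, the light neurofilament chain, rose from 44.4 to 129 FPKM, and Nefm, the medium chain, was at 15.4 and 38.5 FPKM. The kinesin motors Kif5a, Kif5c and Kif1a had differences of -0.86, -0.18 and 0.14.

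Among 28 compared axon guidance genes 5 fell and 2 rose, and among 23 neural adhesion genes 6 fell and 0 rose, each with a median of -0.33. The 2 rises among guidance genes were near the background of 6.54%. Efnb3, a midline ephrin, fell from 30.5 to 1.64 FPKM. The semaphorin receptors Plxna3 and Plxna1 fell from 26.4 to 5.04 FPKM and from 78.5 to 19.9 FPKM, as did Neo1, a netrin-family receptor, from 65.8 to 16.1 FPKM. The 2 that rose were Unc5a, a netrin receptor, from 15.9 to 48.8 FPKM, and Slit3, a secreted repellent, from 4.93 to 15.8 FPKM. Epha4, at 71.5 and 71.9 FPKM, and Sema3a, at 16.2 and 15.3 FPKM, hardly moved.

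In the adhesion list, St8sia2 fell the furthest. It encodes a sialyltransferase that adds polysialic acid to NCAM, which loosens contacts between growing neurites, and it went from 31.9 to 0.30 FPKM. Its main substrate gene Ncam1 fell from 334 to 68.1 FPKM, and the axonal adhesion molecules Chl1 and L1cam fell from 98.4 to 11.4 FPKM and from 181 to 47.3 FPKM. Ncam2, Cntn4 and Nrcam had differences of 0.74, 0.77 and 0.87. The cadherins showed 1 rise and 2 falls among 17 genes: Cdh22 rose from 1.05 to 15.3 FPKM, and Pcdh19 and Cdh13 fell from 34.8 to 6.82 FPKM and from 85.6 to 20.7 FPKM.

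Beyond these lists, the 12 most negative differences included Sla, an adaptor that dampens receptor signalling, which fell from 128 to 0.57 FPKM. Cd24a, a small glycosylated surface protein of immature neurons, was at 1308 FPKM at E18.5, had declined to 357 FPKM at P7 and was at 4.69 FPKM at P21. Nnat, an imprinted gene for a small membrane protein, fell from 138 to 1.49 FPKM. Slc29a4, a monoamine transporter, fell from 74.8 to 1.86 FPKM, and Rasgrp2, an exchange factor for the GTPase Rap, from 166 to 5.40 FPKM. An entry of the small nuclear RNA U4 was at 65.6 FPKM at P7 and listed at 0 in the other 5 groups of Cux2 CPN, and 5730408K05Rik was at 42.5 FPKM at P7, listed at 0 at P21 and before birth, and at 17.2 FPKM at P48.

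Genes that neurons induce when they fire had the highest median of the 23 lists. Of the 29 compared activity-regulated genes 25 rose, 0 fell and 28 were above 0, with a median difference of 2.98 where the median of all compared genes was 0.06. Arc, which drives the removal of AMPA receptors from synapses (chromosome 15, NCBIM37, 74499513 to 74503000), was listed between 0.10 and 0.54 FPKM in the first 3 groups, then at 2.25 FPKM at P7, 229 FPKM at P21 and 544 FPKM at P48. Both late values thus lay far above all early ones, and the difference from P7 to P21 was 6.14.

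The transcription factors of the immediate early response moved in the same direction. Egr1 went from 30.9 to 563 FPKM, Fos from 10.1 to 145 FPKM, Nr4a1 from 5.48 to 139 FPKM, Junb from 8.76 to 84.4 FPKM and Npas4, which responds selectively to calcium entry, from 3.36 to 21.4 FPKM. Jun was at 8.33 and 13.7 FPKM and did not reach the limit. Later-phase products rose as well. Nptx2, a secreted pentraxin that clusters AMPA receptors, went from 1.42 to 58.2 FPKM. Bdnf, the neurotrophin, went from 0.68 to 24.4 FPKM, and Vgf, a precursor of secreted peptides, from 8.99 to 108 FPKM. The MAP kinase phosphatases Dusp14 and Dusp1 went from 15.8 to 267 FPKM and from 12.0 to 102 FPKM. Inhba, which encodes an activin subunit, was the exception at 21.8 and 12.3 FPKM, below the limit, and Gadd45g and Rgs2 had differences of 0.42 and 0.67.

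Several of these genes are also induced when tissue is dissociated. Among the 18 compared dissociation-induced genes 6 rose and 0 fell, and all 6 (Fos, Junb, Egr1, Btg2, Ier2 and Dusp1) belong to the activity list too. The 11 dissociation-induced genes that are not on the activity list, among them the heat shock genes Hspa8, Hsp90aa1 and Dnajb1, had 0 rises and a median difference of 0.23. A further 2 such genes stayed under 10 FPKM at both ages and were not compared, of which Cyr61 was at 0.49 and 8.31 FPKM, a difference of 2.64, and Ier3 had a difference of 1.11. The 22 activity-regulated genes that are not on the dissociation list had 19 rises and a median of 2.89. The part of the dissociation in the rise of these genes was not tested.

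The start sites of activity-regulated genes are known to bind CREB and related factors at a short motif, the cAMP response element (CRE). In windows of 300 bases, 250 before and 50 after the start in NCBIM37, the CRE core TGACG was present on either strand in 15 of the 29 activity-regulated genes (51.7%) and in 2701 of 7848 compared genes (34.4%). The full CRE TGACGTCA, which contains the core on both strands, was present in 4 of 29 (13.8%) and in 3.66% of compared genes. The EGR motif GCGNGGGCG was present in 8 of 29 (27.6%) and in 11.7%, and the serum response element in 3 of 29 and in 1.17%. A match is a description of the letters, not a measured site. Over all rises the core was present in 31.8% of 507 promoters, and over all falls in 19.6% of 327.

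RefSeq start sites (build GRCm38.p6) with a single entry were found for 17 of the 29 genes. The 4 with the largest rise among those with at least 2 matches of the core are printed to show where the motif lies, with the core on either strand (TGACG or CGTCA) in capitals, 5′ to 3′ on the strand of the gene. They are Nr4a1 (chr15:101266596-101266895, plus strand), Fos (chr12:85473640-85473939, plus strand), Btg2 (chr1:134079106-134079405, minus strand) and Egr4 (chr6:85513540-85513839, minus strand). Tubb2a (chr13:34077959-34078258, minus strand), a beta tubulin that fell from 1993 to 543 FPKM, is printed beside them as a gene that holds the full CRE and went the other way.
Nr4a1: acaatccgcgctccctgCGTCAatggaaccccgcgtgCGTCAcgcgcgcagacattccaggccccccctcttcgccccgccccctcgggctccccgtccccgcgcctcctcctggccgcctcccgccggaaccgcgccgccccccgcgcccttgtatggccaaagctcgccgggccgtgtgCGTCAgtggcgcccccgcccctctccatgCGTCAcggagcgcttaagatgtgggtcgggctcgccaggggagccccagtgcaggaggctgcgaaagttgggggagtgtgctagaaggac
Fos: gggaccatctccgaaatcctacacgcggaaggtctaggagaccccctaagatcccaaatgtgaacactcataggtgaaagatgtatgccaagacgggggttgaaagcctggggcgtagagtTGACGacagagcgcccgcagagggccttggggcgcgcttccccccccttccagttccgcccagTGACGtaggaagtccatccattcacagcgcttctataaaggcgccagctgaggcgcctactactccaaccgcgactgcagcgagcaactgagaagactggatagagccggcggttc
Btg2: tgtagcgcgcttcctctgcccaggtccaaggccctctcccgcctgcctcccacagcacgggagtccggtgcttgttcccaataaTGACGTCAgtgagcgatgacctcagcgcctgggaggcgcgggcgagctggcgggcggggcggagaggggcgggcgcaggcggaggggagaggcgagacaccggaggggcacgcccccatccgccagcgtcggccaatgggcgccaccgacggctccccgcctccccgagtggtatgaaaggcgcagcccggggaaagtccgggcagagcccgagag
Egr4: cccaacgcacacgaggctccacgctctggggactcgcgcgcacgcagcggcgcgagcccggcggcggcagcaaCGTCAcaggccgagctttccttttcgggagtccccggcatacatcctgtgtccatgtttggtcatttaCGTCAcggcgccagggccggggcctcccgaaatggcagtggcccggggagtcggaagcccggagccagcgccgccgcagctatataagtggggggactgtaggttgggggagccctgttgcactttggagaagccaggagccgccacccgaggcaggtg
Tubb2a: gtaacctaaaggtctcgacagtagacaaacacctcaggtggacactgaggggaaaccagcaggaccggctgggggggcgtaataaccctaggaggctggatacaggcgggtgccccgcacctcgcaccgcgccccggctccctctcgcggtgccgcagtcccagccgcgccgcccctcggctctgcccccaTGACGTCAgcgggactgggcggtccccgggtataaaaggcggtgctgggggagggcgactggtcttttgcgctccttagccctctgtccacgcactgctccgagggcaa

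Nr4a1 holds 4 cores, with the nearest to the start at position -40 counted from the start site. Fos holds 2, at -129 and -66. In Btg2 and Tubb2a the 2 matches are the overlapping strands of 1 full CRE, which begins at -166 in Btg2 and at -59 in Tubb2a.

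The 12 largest differences upward held genes of several kinds. Tnnc1, the calcium-binding troponin C of heart and slow muscle, went from 0.72 to 251 FPKM. Nrn1, a lipid-anchored surface protein that promotes neurite and synapse maturation (chromosome 13, NCBIM37, 36817494 to 36826346), was at 4.30 FPKM before birth, 1.58 FPKM at P3 and 2.52 FPKM at P7, then at 308 FPKM at P21 and 221 FPKM at P48. Both late values again lay far above the early ones. Igfbp6, which binds insulin-like growth factors, went from 0.10 to 82.3 FPKM, and Car4, a membrane-bound carbonic anhydrase, from 1.31 to 111 FPKM. Cckbr, the receptor of cholecystokinin, went from 3.33 to 121 FPKM, while Cck itself, the peptide, went from 333 to 2282 FPKM. Cd34, a surface sialomucin, went from 2.04 to 75.3 FPKM. The mitochondrial tRNA mt-Ts1 was listed at 0 at P7 and at 77539 FPKM at P21, and, as a short RNA listed at 0 in 10 of the 12 groups, it is given without a fold.

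Synaptic lists had medians above 0, with steps past the limit in a minority of members. Of 30 compared organizers of synapses 9 rose and 0 fell, with a median of 0.35. After Nrn1, the largest belonged to the pentraxins, with Nptx1 from 0.60 to 70.0 FPKM and their receptor Nptxr from 63.8 to 376 FPKM. C1ql3 and Cbln2, secreted bridging proteins, rose from 1.83 to 14.1 FPKM and from 9.36 to 41.3 FPKM. The neurexins and neuroligins that define the pathway moved less: Nrxn3 was at 35.9 and 89.7 FPKM, Nlgn1 at 28.4 and 20.5 FPKM, and Nlgn3 at 57.2 and 54.8 FPKM.

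In the release machinery 9 of 37 compared genes rose and 1 fell, and 30 were above 0, with a median of 0.87. Snap25, the membrane SNARE of vesicle fusion, climbed at each age, from 111 FPKM before birth over 253 FPKM at P3 and 689 FPKM at P7 to 3524 FPKM at P21 and 5026 FPKM at P48, with a 5.12-fold step from P7 to P21. Slc17a7, which loads glutamate into vesicles, went from 194 to 1063 FPKM. Syt13, a synaptotagmin, rose from 25.5 to 192 FPKM. Rph3a, a Rab3 effector, rose from 14.9 to 61.0 FPKM, and Bsn, an active zone scaffold, from 6.55 to 26.5 FPKM. The fall was that of Rab3b, from 196 to 40.8 FPKM, while its relative Rab3a was at 467 and 855 FPKM.

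Postsynaptic density genes showed 8 rises and 0 falls among 27, with 24 above 0 and a median of 1.01. Itpka, a kinase of inositol trisphosphate that bundles actin in spines, rose from 19.2 to 243 FPKM, 12.7-fold. Dlgap1 and Kalrn, a scaffold and an exchange factor of spines, rose from 43.5 to 208 FPKM and from 30.4 to 141 FPKM. Camk2a, the alpha subunit of the plasticity kinase, rose from 92.6 to 267 FPKM, whereas Camk2b was at 407 and 469 FPKM. Dlg2, which encodes PSD-93, was lower at P21, at 99.8 and 38.2 FPKM.

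Glutamate receptor genes moved both ways, with 3 rises and 3 falls among 20 and a median of 0.39. Gsg1l, an auxiliary subunit that slows AMPA receptor recovery, rose from 0.48 to 31.9 FPKM, Cacng3, a transmembrane AMPA receptor regulatory protein, from 50.0 to 191 FPKM, and Gria4 from 23.8 to 71.1 FPKM. Grin2d, a juvenile NMDA receptor subunit, fell from 10.1 to 1.58 FPKM, Neto2, a kainate receptor partner, from 33.3 to 6.47 FPKM, and the kainate receptor Grik1 from 19.4 to 5.28 FPKM. Among 15 genes of GABA-A receptors and chloride transport 3 rose and 1 fell. Gabrd, the delta subunit of receptors outside synapses, was among the rises, from 22.0 to 109 FPKM. Gabrg3 fell from 11.5 to 3.30 FPKM. Slc12a5, the chloride exporter KCC2, was at 54.4 and 143 FPKM, just below the limit.

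Most ion channel genes stayed inside the limit. Of 42 compared potassium channel genes 12 rose, 2 fell and 28 did neither, with 36 above 0 and a median of 0.88. Kcnip3, a calcium-binding subunit of A-type channels, rose from 4.88 to 100.5 FPKM, and Kcna1, the Kv1.1 channel of axons, from 0.94 to 11.7 FPKM. The beta subunit Kcnab3 rose from 11.8 to 71.4 FPKM and Kcnc4 from 4.11 to 27.8 FPKM. Kcnip1 went the other way, from 43.9 to 7.43 FPKM. Sodium and HCN channels showed 3 rises and 1 fall among 13, and 9 did neither. Among them, the beta subunit Scn2b rose from 4.67 to 31.3 FPKM, Scn1a rose from 5.98 to 23.4 FPKM, and the beta subunit Scn3b fell from 83.8 to 23.6 FPKM. Of 9 calcium channel genes, Cacna2d3 and Cacnb4, accessory subunits, rose from 14.9 to 122 FPKM and from 26.6 to 175 FPKM, and 0 fell.

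Calcium signalling counted 13 rises and 0 falls among 45 compared genes, with a median of 0.67. Rasgrp1 and Rasgrf1, exchange factors that pass calcium signals to Ras, rose from 7.95 to 217 FPKM and from 2.26 to 68.1 FPKM. Calb1, the buffer calbindin, rose from 13.2 to 99.8 FPKM. Hpca, the sensor hippocalcin, rose from 490 to 1482 FPKM. The calmodulin gene Calm2 had a difference of 0.35.

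Of 17 compared neuropeptide and granin genes 6 rose and 1 fell. The rises were those of Cck, Sst, Penk, Pcsk1, a convertase that cuts peptide precursors, Vgf and Bdnf, and the fall was that of Tac1, which makes substance P, from 25.1 to 7.78 FPKM. Penk, the enkephalin precursor, went from 3.02 to 23.7 FPKM, and Pcsk1 from 2.21 to 29.9 FPKM.

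**Figure D2:**
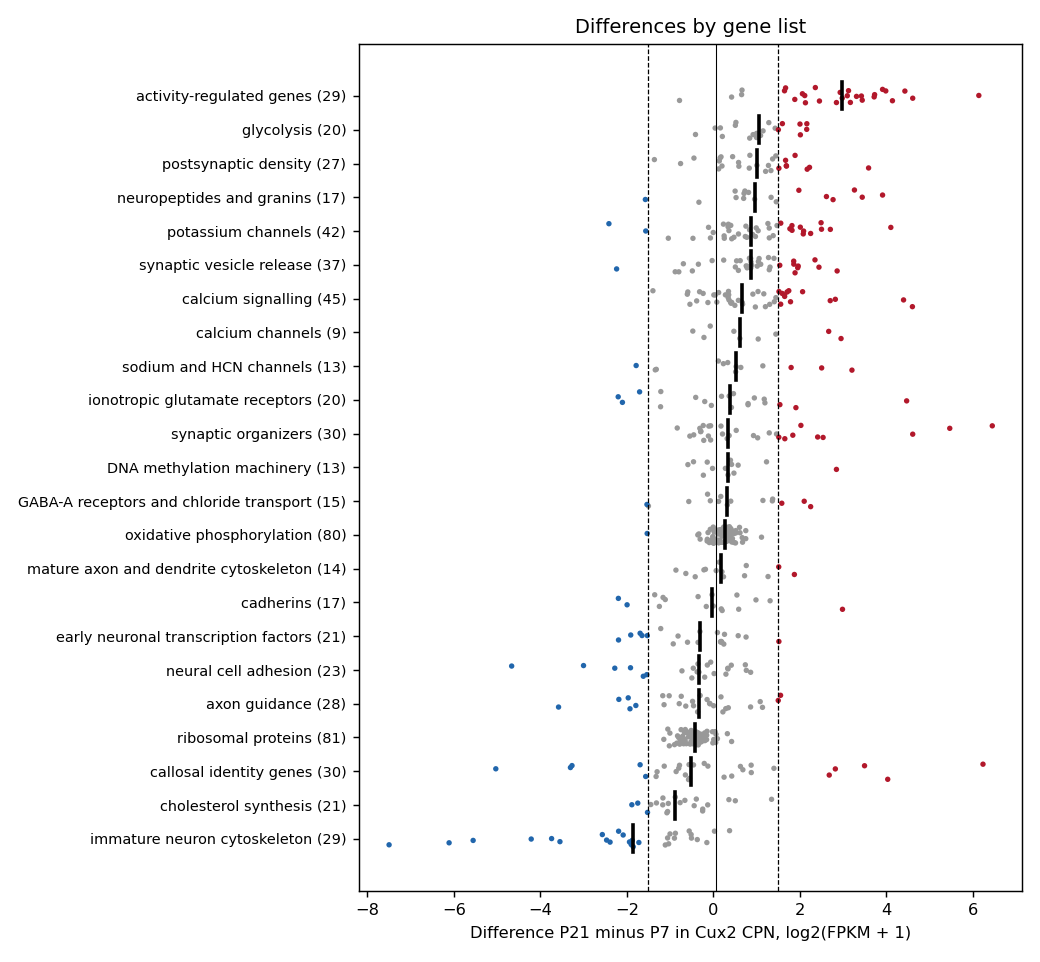
Difference from P7 to P21 in Cux2 CPN, as log2(FPKM + 1), for every compared gene of 23 gene lists, with the number of genes in brackets, red for rises and blue for falls of at least 1.5 (dashed lines). Black bars mark the list medians, which run from -1.85 for the immature cytoskeleton to 2.98 for the activity-regulated genes, and the thin line marks the median of all compared genes, 0.06.

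Within families whose members are known to replace each other, the share of the immature members was followed over the 6 ages, on FPKM, which are per length. Among GABA-A receptor alpha subunits, Gabra2, Gabra3 and Gabra5 together held 85.2% at E18.5, 69.9% at P7, 27.4% at P21 and 26.7% at P48. Gabra5 went from 42.9% to 11.1% of the family between P7 and P21, and Gabra4, listed as mature, from 16.2% to 27.2%. For NMDA receptors, Grin2b, Grin2d and Grin3a held 86.8% at P7 and 64.1% at P21. Grin2a, the mature member, went from 7.85 to 19.1 FPKM, while Grin2d was at 10.1 and 1.58 FPKM, Grin3a at 9.29 and 4.28 FPKM and Grin2b at 32.4 and 28.2 FPKM.

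In sodium channels much of the fall in the immature share came before P7. Scn3a, the embryonic alpha subunit, held 64.1% of its family at E18.5, 34.6% at P3, 19.4% at P7 and 5.08% at P21. Slc17a6, the vesicular glutamate transporter of early cortex, held 76.1% at E18.5, 12.4% at P7 and 1.35% at P21. Its own level was 18.4, 27.6 and 14.5 FPKM at these ages, while that of Slc17a7 was 5.79, 194 and 1063 FPKM, so the share fell before P7 with the rise of Slc17a7 and not with a lower Slc17a6. The alpha tubulin Tuba1a held 93.0% at P7 and 58.8% at P21, with Tuba4a at 2.55% and 32.8%. Among beta tubulins the immature members held 54.4% at P7 and 30.2% at P21, although Tubb2a, listed as mature, fell too. Ldha, the form of lactate dehydrogenase that favours lactate, held 80.9% at P7 and 54.0% at P21, as Ldhb rose from 171 to 688 FPKM. The MAGUK scaffolds and the CaMKII subunits ran against the names of their lists. The immature share of CaMKII subunits, here Camk2g and Camk2d, was 5.43% at P7 and 6.67% at P21. Camk2a and Camk2b were both listed as mature, so that share does not show a shift between them. Of the family, Camk2a held 17.5% at P7 and 33.9% at P21, and Camk2b 77.1% and 59.4%. Among the MAGUK scaffolds, Dlg1, listed as immature, rose from 15.2 to 59.3 FPKM, and Dlg4, which encodes PSD-95, was at 36.7 and 41.8 FPKM.

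**Figure D3:**
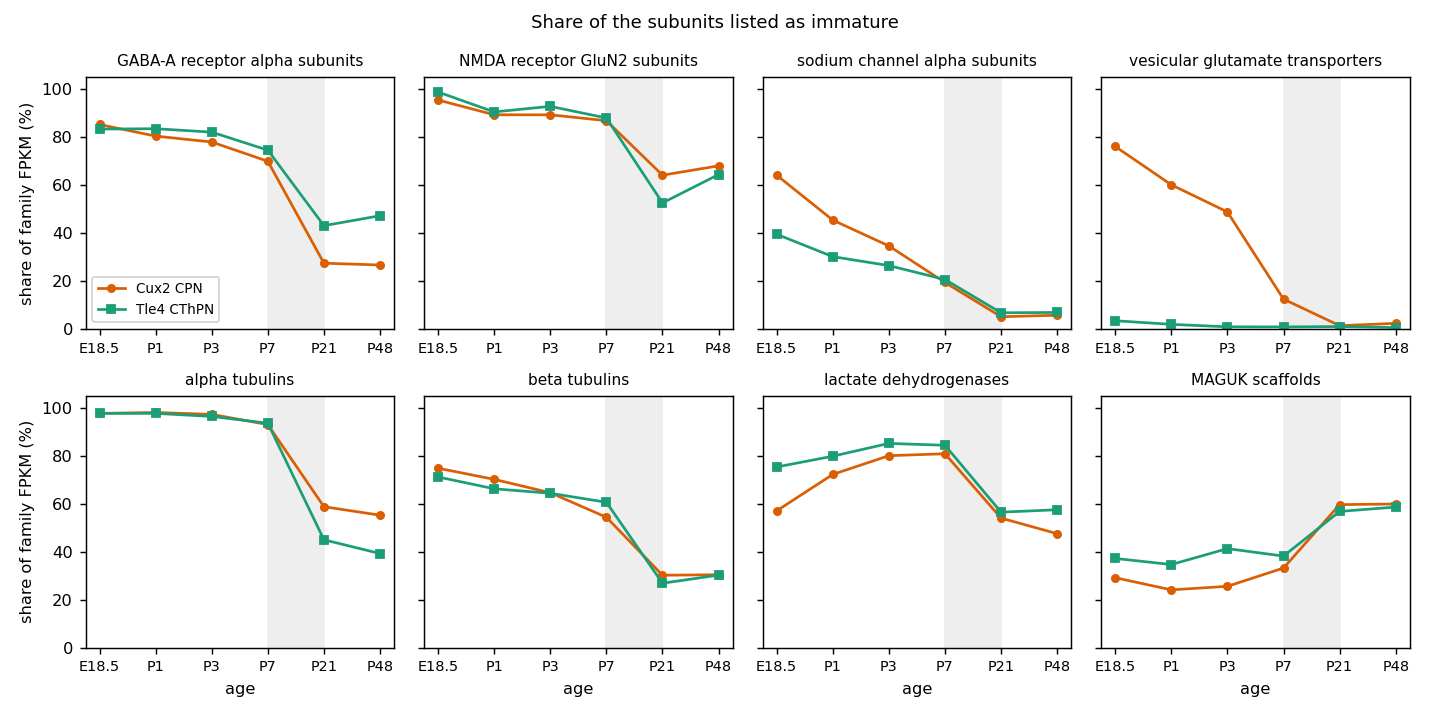
Share of the members listed as immature in the summed FPKM of 8 gene families (vertical axis, percent) over 6 ages (horizontal axis, evenly spaced) in Cux2 CPN (circles) and Tle4 CThPN (squares), with the interval from P7 to P21 shaded. In Cux2 CPN the share of immature GABA-A receptor alpha subunits went from 69.9% to 27.4% across the shaded interval, while the share of Slc17a6 among vesicular glutamate transporters went from 76.1% to 12.4% before it.

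Genes of callosal identity did not move as a block, with 5 rises and 5 falls among 30 compared and a median of -0.50. Lpl, lipoprotein lipase, was at 28.5 FPKM before birth and 153 FPKM at P3, still at 116 FPKM at P7, then at 2.58 FPKM at P21 and 0.93 FPKM at P48. Tmtc4 and Nnmt fell from 60.6 to 5.23 FPKM and from 19.9 to 1.17 FPKM, and the transcription factors Bhlhe22 and Pou3f1 from 59.1 to 17.6 FPKM and from 53.7 to 17.5 FPKM. The rises were Igfbp6, 6330527O06Rik (12.6 to 223 FPKM), Ddit4l (1.81 to 30.8 FPKM), Calb1 and Dkk3, a secreted modulator of Wnt signalling (15.6 to 106 FPKM). Cux1, a homeobox gene of upper layers, was at 170 and 97.3 FPKM and did not reach the limit.

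Transcription factors of early neurons counted 5 falls and 1 rise among 21 compared genes, with a median of -0.31. Those that fell were Klf7 (86.5 to 18.2 FPKM), Zfp238 (369 to 97.6 FPKM), Bhlhe22, Sox4 (67.7 to 20.9 FPKM) and the chromatin protein Hmgb3 (131 to 44.8 FPKM). Tbr1, better known from deep layers, rose from 18.3 to 54.4 FPKM. The proneural factors Neurod1, Neurod2 and Neurod6 had differences of 0.58, 0.26 and 0.24. Bcl11b and Sox11 stayed under 10 FPKM at both ages, at 6.04 and 0.66 FPKM and at 2.30 and 0.63 FPKM.

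Metabolic lists went different ways. Glycolysis had 6 rises and 0 falls among 20 genes, with 19 above 0 and a median of 1.05. Aldoa, aldolase A, rose from 429 to 1925 FPKM, Eno2, the neuronal enolase, from 134 to 546 FPKM, and Slc2a1, a glucose transporter, from 6.17 to 20.7 FPKM. The 80 genes of oxidative phosphorylation had 0 rises and 1 fall around a median of 0.27. The fall was that of Cox6a2, from 38.2 to 12.6 FPKM. Cholesterol synthesis had 3 falls and 0 rises among 21, with 18 below 0 and a median of -0.88. Acat2, Idi1 and Cyp51 fell from 104 to 27.4 FPKM, from 54.7 to 15.6 FPKM and from 63.6 to 21.5 FPKM. All 81 ribosomal protein genes stayed inside the limit, and 74 of them were below 0, with a median of -0.43. Among 13 genes of DNA methylation 1 rose, Gadd45b, which is also an activity-regulated gene, while Dnmt3a, the methylase of neurons, was at 69.0 and 50.0 FPKM and Dnmt1 at 17.9 and 15.1 FPKM.

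Markers of other cells were present and moved. In sorted bulk samples, fewer cells of a type and less RNA per cell cannot be told apart. Of 12 compared interneuron markers 6 fell and 2 rose, while the summed FPKM of the 16 listed markers was 464 at P7 and 524 at P21. Without the peptides Sst, Vip and Npy, which summed to 174 and 445 FPKM, the sum was 291 FPKM at P7 and 79.1 FPKM at P21, and 6 of 9 compared markers fell. The falls included Lhx6, Erbb4, Nxph1 and Dlx1, with Lhx6, a transcription factor of interneurons from the medial eminence, at 27.7 FPKM at P7 and 2.23 FPKM at P21. The peptides Sst and Vip rose from 71.0 to 283 FPKM and from 0.93 to 16.9 FPKM, and Gad1 was at 34.2 and 18.1 FPKM. The transcription factors Lhx6 and Dlx1 thus fell while the peptides Sst and Vip rose. The list did not split into peptides and all other markers, however. Pvalb, not one of these peptides and not among the 9 compared markers, had a difference of 3.08. The part of interneurons in the falls of Grik1, Gabrg3, Kcnip1 and Tac1 and in the rise of Sst was not tested.

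The 4 haemoglobin genes all rose, from a sum of 4.45 FPKM at P7 to 219 FPKM at P21, and Hba-a1 and Hbb-b1 were among the 12 largest rises. The sum was 174 FPKM in Tle4 CThPN at P21. The 7 listed oligodendrocyte markers summed to 22.6 and 161 FPKM, with Mobp at 0.12 and 15.5 FPKM, and the 9 astrocyte markers to 32.0 and 162 FPKM, with Slc1a2 at 19.8 and 96.9 FPKM. Microglial markers summed to 28.8 and 20.9 FPKM. Endothelial markers summed to 24.4 and 15.8 FPKM, of which Itm2a made up 18.2 and 7.55 FPKM, and the median difference of the 5 listed was 0.43. Layer 5 markers summed to 113 and 502 FPKM, of which Pcp4 made up 67.6 and 459 FPKM. Of the 3 compared layer 5 markers 2 rose, Pcp4 and Crym, the latter from 1.36 to 19.1 FPKM, while Fezf2 was at 8.24 and 4.06 FPKM and Bcl11b at 6.04 and 0.66 FPKM. The 4 layer 4 genes summed to 145 and 208 FPKM in Cux2 CPN, and to 55.3 and 18.2 FPKM in Tle4 CThPN. Of these genes in Cux2 CPN, Rspo1 rose from 0.57 to 37.4 FPKM and Tmem145 was at 60.4 and 94.5 FPKM. Kcnh5 was at 37.1 and 43.8 FPKM and Rorb at 47.4 and 31.8 FPKM. The part of these cells in the differences was not tested.

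**Figure D4:**
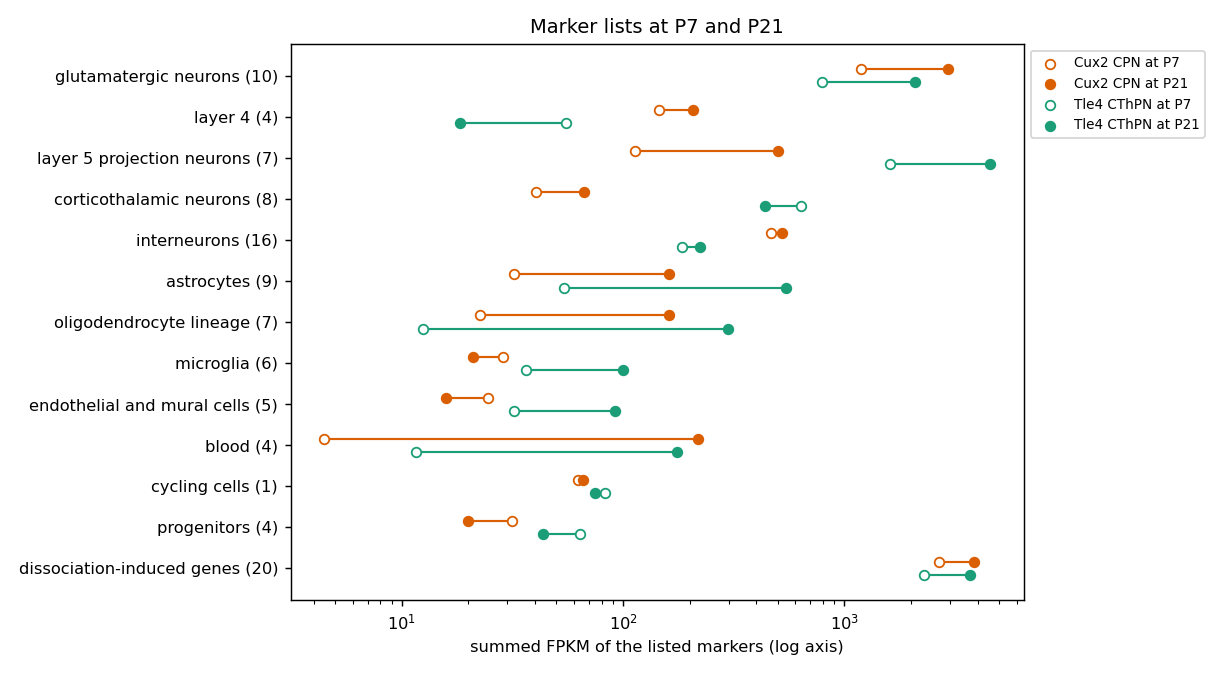
Summed FPKM (horizontal log axis) of the listed markers of 13 cell types or states, with the number of listed markers in brackets, at P7 (open circles) and P21 (filled circles) in Cux2 CPN and Tle4 CThPN. The blood markers in Cux2 CPN went from 4.45 to 219 FPKM and the interneuron markers from 464 to 524 FPKM, or from 291 to 79.1 FPKM without their 3 peptides.

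Tle4 CThPN were sorted at the same ages in libraries of their own, so their change can be set beside that of Cux2 CPN. Of the genes compared in both classes, 7519 in all, 417 (5.55%) rose and 272 (3.62%) fell in Tle4 CThPN. Among the 421 of them that rose in Cux2 CPN, 249 rose in Tle4 CThPN too. That is 59.1% of the 421, and 59.7% of the 417 in Tle4 CThPN. Of 275 falls, 163 fell in both classes, 59.3% of the 275 and 59.9% of the 272 in Tle4 CThPN. The other genes of the 535 rises and 345 falls in Cux2 CPN stayed under 10 FPKM at both ages in Tle4 CThPN. They are outside these shares. A gene rose in Cux2 CPN and fell in Tle4 CThPN in 1 case, and the opposite was seen in 5.

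Some genes changed more in one class than in the other. Sla fell from 128 to 0.57 FPKM in Cux2 CPN and was at 144 and 52.0 FPKM in Tle4 CThPN. Rspo1, a secreted enhancer of Wnt signalling listed above as a layer 4 marker, rose to 37.4 FPKM in Cux2 CPN. It was at 0.43 and 0.50 FPKM in Tle4 CThPN. Gsg1l was at 38.0 and 26.3 FPKM in Tle4 CThPN, so that at P21 the classes were close where at P7 they had been far apart. Cck, at 289 and 258 FPKM in Tle4 CThPN, and Cacna2d3, at 6.71 and 4.59 FPKM, did not share the rise seen in Cux2 CPN. Gpc5, a cell surface proteoglycan, fell from 60.3 to 3.94 FPKM in Cux2 CPN and was at 1.92 and 6.45 FPKM in Tle4 CThPN. With 1 value per group, none of these class differences was tested.

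Within Cux2 CPN, P3 and P48 are libraries that the comparison of P7 with P21 did not use. From P3 to P48, 837 of 7929 genes compared at both intervals rose (10.6%) and 523 fell (6.6%). Of the 501 rises from P7 to P21 among them, 461 (92.0%) also rose from P3 to P48, and these were 55.1% of the 837. Of the 309 falls, 272 (88.0%) also fell, 52.0% of the 523, and 0 genes went past the limit in opposite directions. The rise of the haemoglobin genes was smaller there, from a sum of 10.2 FPKM at P3 to 79.8 FPKM at P48.

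**Figure D5:**
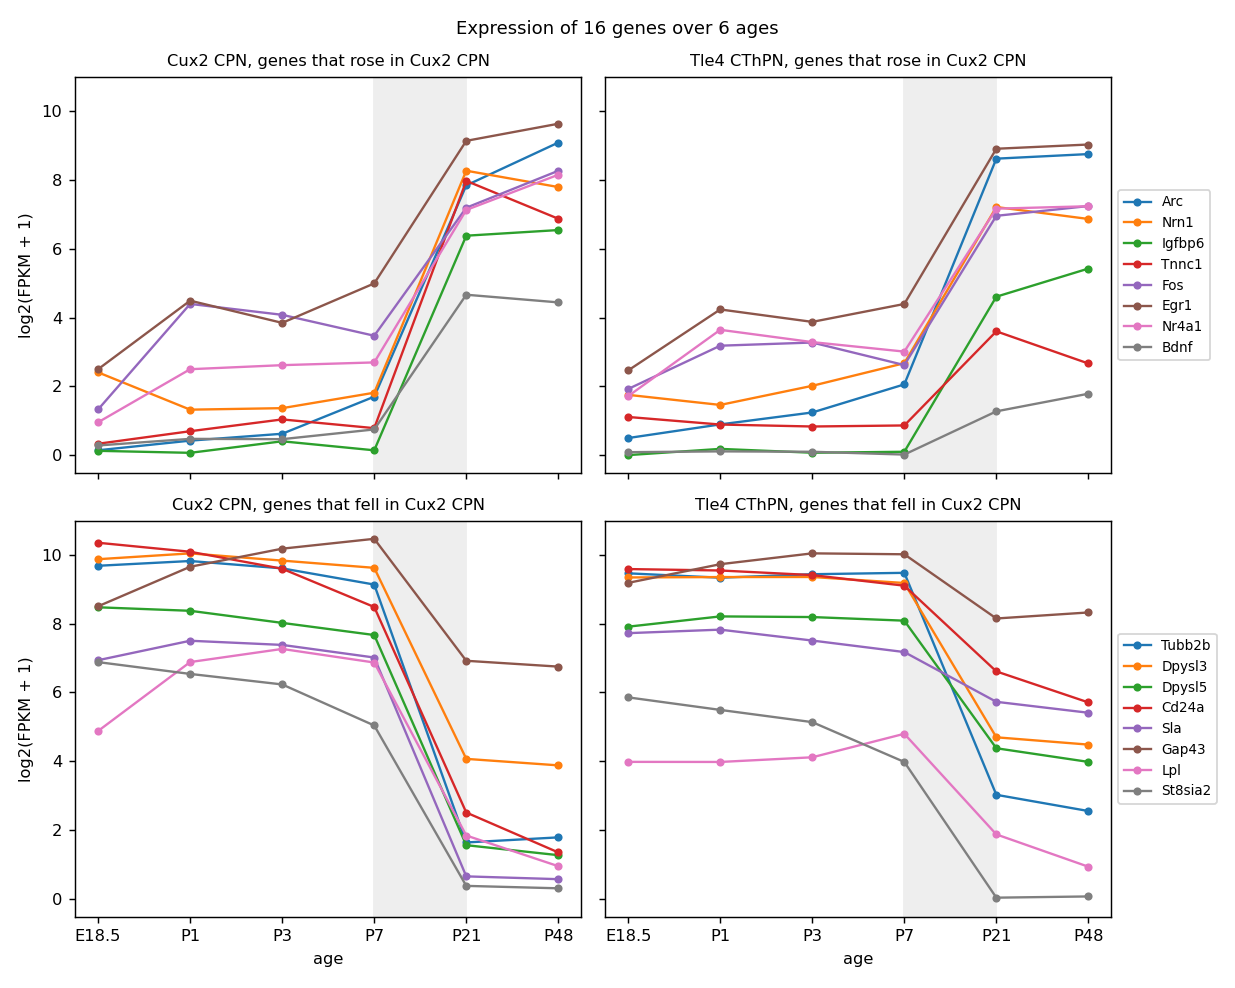
Level of 8 genes that rose (top) and 8 that fell (bottom) from P7 to P21 in Cux2 CPN, as log2(FPKM + 1) over 6 ages, in Cux2 CPN (left) and Tle4 CThPN (right), with a single value per gene and age and the interval from P7 to P21 shaded. Arc went from 2.25 to 229 FPKM and Tubb2b from 563 to 2.11 FPKM in Cux2 CPN, and Sla was at 144 and 52.0 FPKM in Tle4 CThPN.

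Features that the choice of genes did not use were read from NCBIM37 for 94.8% of the rises, 94.8% of the falls and 96.0% of all compared genes. The promoters of both the rises and the falls were poorer in CpG pairs relative to base composition, with a median ratio of observed to expected CpG of 0.67 and 0.68 against 0.79 for genes that did neither. Their GC content was similar, at medians of 61.3%, 63.3% and 61.0%. Genes that fell were longer in genomic span, with a median of 31312 bases against 24911 for rises and 23292 for the rest. Median exon lengths lay close together, at 3759, 3538 and 3709 bases. These are descriptions over genes, which are not independent replicates.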

How the data were processed

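RNA-seq was performed by the authors on sorted Cux2 CPN and Tle4 CThPN, with 2 libraries per group. The authors amplified full-length cDNA, trimmed the reads, aligned them with TopHat2 to mm9 (NCBIM37) and computed FPKM with Cuffdiff over the libraries of a group. The deposited file holds these FPKM, 1 value per gene and group. Read numbers cannot be had from FPKM, which leaves the depth of each library and any interval unknown. Differences were computed as log2(FPKM + 1), which understates the change of low genes, in Python 3.11.15 with numpy 2.4.6 and pandas 2.3.3, and figures were drawn with matplotlib 3.10.9. The computation was tested on simulated data. Positions, exon lengths and promoter windows come from the GENCODE annotation of NCBIM37, in which 8025 of the 8177 compared genes were placed. Symbols are shared by 101 entries.

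The members, the gene lists, the families and the limit of 1.5 were chosen with earlier results of these data known. Named genes are the 12 largest rises and falls, the 6 largest gains and losses in FPKM, the 3 largest rises and falls of each of 23 lists, the members of 13 families, early transcription factors, markers, and the 5 largest class differences in each direction. Other list members named for comparison, the genes nearest the limit and Cdkn1a were chosen after their values were seen. Groups follow the labels. No test was made. Alternatives were other pseudocounts, median-ratio scaling, other minimum values and limits, and other rules on short genes. Some members of the lists are counted but not reported here by name.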

Additional observations from a re-analysis of the deposited data

Results flagged for a closer look

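The changes of some genes went past the limit of 1.5 in opposite directions in the 2 neuron classes from P7 to P21. The differences between the classes were not tested, since each group has 1 value. Cdkn1a, an inhibitor of the cell cycle, was at 30.1 and 106 FPKM in Cux2 CPN and at 76.7 and 23.7 FPKM in Tle4 CThPN, so that its change differed by 3.43 on the log2 scale. The others named here fell in Cux2 CPN and rose in Tle4 CThPN. Nxph1, a neurexin ligand, was at 51.5 and 6.08 FPKM against 9.45 and 59.9 FPKM, a difference in change of -5.44. Plcxd3 was at 18.1 and 2.81 FPKM against 3.37 and 29.5 FPKM, a difference of -5.13. Grik1 was at 19.4 and 5.28 FPKM against 2.06 and 12.1 FPKM, a difference of -3.80, and Gabrg3 at 11.5 and 3.30 FPKM against 3.12 and 18.1 FPKM, a difference of -3.75. Nxph1 belongs to the interneuron markers, whose part was not tested.

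The 144 dropped entries hold FPKM outside the comparison. In Cux2 CPN they summed to 3365050 FPKM at P7 and 2244430 FPKM at P21, and in Tle4 CThPN to 9198 and 9238 FPKM. By symbol, 16 of them are microRNA, 61 small nucleolar RNA and 41 clone-named entries. The other 26 are Gm-number entries that were dropped for being at 0 in every group of 1 class, which fixes part of the difference between the classes. Without them Cux2 CPN had sums of 2992020 and 1792930 FPKM, and Tle4 CThPN had sums of 9122 and 9149 FPKM.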

How the results depend on the processing

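No paired analysis was possible because each group has a single deposited value without a replicate number, and for the same reason no library could be left out. The counts below are those of genes past the limit, first for Cux2 CPN from P7 to P21, then shared with Tle4 CThPN, then past the same limit from P3 to P48. For rises these were 535, 249 and 461, and for falls 345, 163 and 272. A minimum of 30 FPKM gave 329, 143 and 275 rises and 183, 89 and 147 falls. A minimum of 10 FPKM at both ages gave 227, 80 and 137 rises and 113, 47 and 81 falls. A limit of 1 gave 973, 494 and 847 rises and 663, 348 and 544 falls, and a limit of 2 gave 319, 128 and 275 rises and 199, 82 and 151 falls. A pseudocount of 5 gave 359, 161 and 318 rises and 211, 107 and 172 falls. The counts under a pseudocount of 0.1, median-ratio scaling, no minimum, and both rules on short genes stayed within 1.5 times the first values given. Of 131 named genes past the limit, 0 changed sign under either pseudocount or the scaling, and 4 dropped under the limit with the scaling, 0 with a pseudocount of 0.1 and 17 with a pseudocount of 5. A stricter minimum or limit leaves fewer genes by construction. With 1 value per group, the precision of every value is unknown.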
